A study of Homo sapiens with 9 samples.

Results

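Culture replicate 3 was compared with culture replicate 1 of 786-0 renal carcinoma cells, across 3 groups in 1 model. The libraries were chosen by the replicate number that ends each column name of the deposited gene counts, which gave 6 of the 9 libraries of the series, 1 of each number in each group. The group was kept as a block, so the differences described are averages over the 3 groups, and their size may differ between groups. Genes of the mevalonate and sterol pathway, of which 19 of 25 were down-regulated in replicate 3, are left aside here, and the other genes are described. 786-0 is an established clear cell renal carcinoma line with defective VHL, constitutive HIF2α and an inactivating HIF1A mutation. The groups were untreated parental cells (WT), parental cells with 10 μM of the HIF2α antagonist PT2385 for 48 h (PT2385), and an untreated HIF2α knockout of the same line (KO), which is a single line. All were grown in normoxia (21% oxygen) with 5 mM glucose and 10% serum, and total RNA was sequenced with 3 replicates in each group. The labels do not say whether replicates were separate cultures or whether a number marked a shared day, so every p-value here measures only the spread between these samples, which may be technical.

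Growing cells set many transcript levels through a small number of transcription factors that read growth factor, lipid and amino acid supply. E2F factors drive genes of DNA replication, SREBP1 those of fatty acid synthesis, MYC those of ribosome assembly, and ATF4 those that import or make amino acids. FOXO factors act on genes of quiescence when growth factor signalling is low, and YAP with TEAD acts on genes of spreading, adherent cells.

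Renal lineage markers were present in all libraries. PAX8, a renal lineage factor, had 6975 to 9881 reads in the 9 libraries and VIM, the mesenchymal filament gene typical of this line, 52161 to 66723. HNF4A and LRP2, markers of differentiated proximal tubule, had 0 reads in every library. The log2 fold changes of PAX8 (0.03) and VIM (0.12) in replicate 3 against 1 did not pass the test. The 8 endothelial markers summed to 1 to 8 reads per library, the 6 erythroid markers to 0 or 1, the 8 leukocyte markers to 21 to 31 (CSF1R 7 to 19, PTPRC 0 or 1), and the 8 fibroblast markers to 78 to 180 (COL1A1 24 to 104, LUM 15 to 60, DCN and PDGFRA 0). The leukocyte marker CD14, too low to be tested, had 3 and 9 reads in replicates 1 and 3 of WT, 6 and 18 in KO, and 2 and 10 with PT2385, and what these reads stand for was not tested. The knockout target EPAS1, which encodes HIF2α (ENSG00000116016, chromosome 2, 46293667 to 46386697), was at 270.3, 264 and 233 normalized CPM in WT replicates 1, 2 and 3, at 248, 248 and 219 with PT2385, and at 20.2, 24.9 and 21.1 in KO. All 3 KO libraries lay far below the 6 others, as labelled. CPM here are counts scaled by library size and edgeR's TMM factors, and gene positions are those of GRCh38 in GENCODE v44.

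WT replicates 1, 2 and 3 had 11881000, 12296841 and 12055602 counted reads, KO replicates 12893484, 14430108 and 14730081, and PT2385 replicates 12209143, 13303063 and 14318384. Replicate 3 was therefore the deeper library in all groups, by little in WT, and TMM factors lay between 0.988 and 1.02. With reads thinned at random to the size of the smallest library, 984 of the 1050 differentially expressed genes given next were called again. The test was edgeR's quasi-likelihood test with Benjamini-Hochberg adjustment over all genes tested, and differentially expressed means an adjusted p under 0.05. With 6 libraries and the group as a block, 2 residual degrees of freedom remained, and whether the groups differed in their replicate effect was not tested. For a single gene, an exact two-sided sign-flip test over 3 pairs cannot give a p below 0.25.

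Replicate 3 had more transcript from genes of DNA replication and ribosome assembly and less from genes of fatty acid synthesis, and 10 of 30 genes of the ATF4 amino acid response were down-regulated and 6 of 22 YAP/TEAD targets up-regulated. Of 15108 genes tested, 1050 (6.95%) were differentially expressed, 555 up-regulated in replicate 3 (3.67%) and 495 down-regulated (3.28%). At an unadjusted p under 0.05 there were 3606. Each of the 1050 differed in the same direction in all 3 groups, as 6893 of all genes tested did (45.6%). Most changes were small, with a median size of 1.27-fold, and 172 genes changed at least 1.5-fold. At least a 2-fold change was reached by 45 genes, 9 of them up-regulated and 36 down-regulated, and 42 of the 45 lay outside the mevalonate list. Of 11760 protein-coding genes tested 946 were differentially expressed (8.04%), 535 of them up-regulated. Of 1845 long noncoding RNAs tested 72 were differentially expressed (3.90%), 12 up-regulated and 60 down-regulated. The shares of all genes tested were 3.67% up-regulated and 3.28% down-regulated. The prepared gene lists held 165 of the 1050 genes, and 885 were in none.

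The count depended on the test and on the WT libraries, and which genes were called depended on each pair of libraries. DESeq2 called 301 genes, all among the 1050, a filter-free fit called 1733, a test against a 1.5-fold change called 3, an adjusted p under 0.01 left 232, and without the group block 0 genes passed in edgeR (992 at an unadjusted p under 0.05). Upper-quartile scaling gave 465 up-regulated and 622 down-regulated genes (42.8% up, against 52.9%). Without the WT pair of libraries 536 genes were called, 451 of them among the 1050. Without the KO pair there were 1104 (420 up, 684 down), 708 of them among the 1050, and without the PT2385 pair 1069, with 767 among them.

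**Figure D1:**
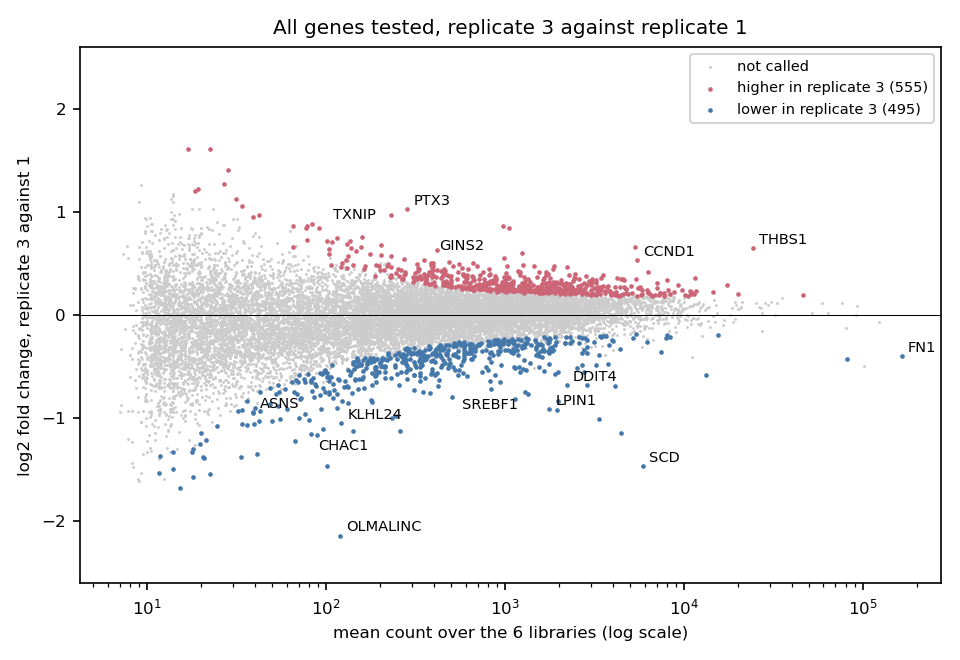
Log2 fold change of replicate 3 against replicate 1 (vertical) against the mean count over the 6 libraries (horizontal, log scale) for 15108 genes, with 555 up-regulated genes in red and 495 down-regulated genes in blue. OLMALINC (-2.14) and SCD (-1.46) lie lowest among the labelled genes, and PTX3 (1.02) and TXNIP (0.98) highest.

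Differentially expressed genes also differed in base composition and length. Up-regulated genes had a median exon GC content of 52.2% and down-regulated genes of 43.0%, against 47.1% for all genes tested. Genes were split by each property into 5 bins of equal size. In the bin of lowest GC content 39 genes were up-regulated and 161 down-regulated, and in that of the highest 174 and 63. The longest genes held 82 up-regulated and 183 down-regulated, the bin with the lowest counts 8 and 21, and that with the highest 286 and 118. Correcting each library for GC content gave 1782 calls, 1026 of them among the 1050, and correcting for length gave 1036. DNA replication, ribosome biogenesis and fatty acid synthesis genes had median GC contents of 50.2%, 49.3% and 49.1%, and with the GC correction their median log2 fold changes were 0.25, 0.26 and -0.34.

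**Figure D2:**
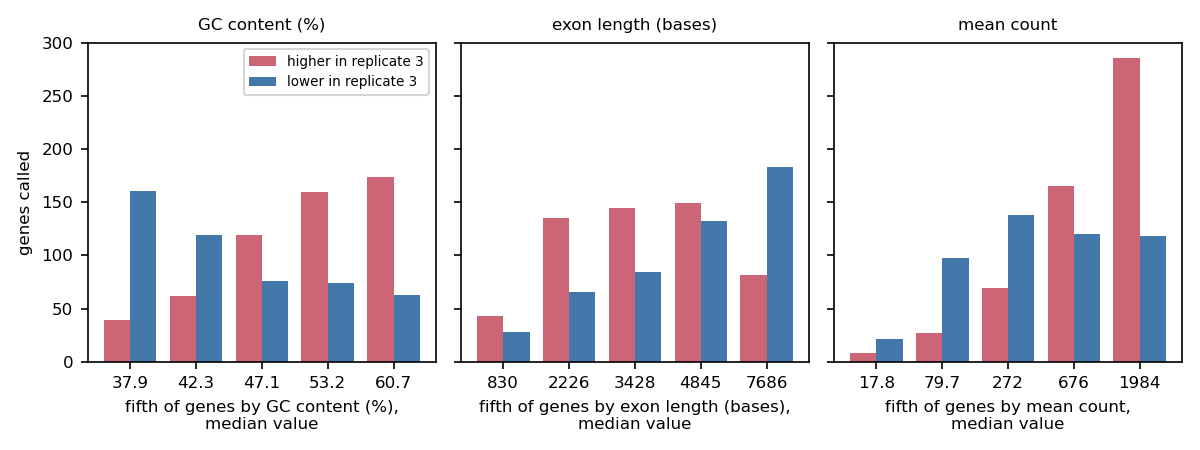
Number of up-regulated (red) and down-regulated (blue) genes in 5 bins of equal size by GC content (percent), exon length (bases) and mean count, with the median of each bin on the horizontal axis. Down-regulated genes outnumber up-regulated ones in the bin of lowest GC content (161 against 39), and the reverse holds in the highest (63 against 174).

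Replicate 2, which the choice of libraries did not use, had 7 differentially expressed genes of 15172 against replicate 1 (0.0461%), and replicate 3 against 2 had 37 of 15323 (0.241%). Any difference among the replicate numbers was found in 409 of 15655 genes (2.61%). These counts moved when 1 group was left out. For replicate 2 against 1 they were 107 without WT, 194 without KO and 1 without PT2385, for 3 against 2 they were 9, 291 and 88, and for any difference 37, 483 and 31. These comparisons share libraries with the main one. On the first principal component of deviations from group means (47.0% of variance) the replicate 3 libraries were at 7.52 (WT), 13.9 (KO) and 11.3 (PT2385), and those of replicate 1 at -7.37, -4.78 and -9.18. Replicate 2 lay between them in WT (-0.154) and PT2385 (-2.17) but beyond replicate 1 in KO (-9.07).

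**Figure D3:**
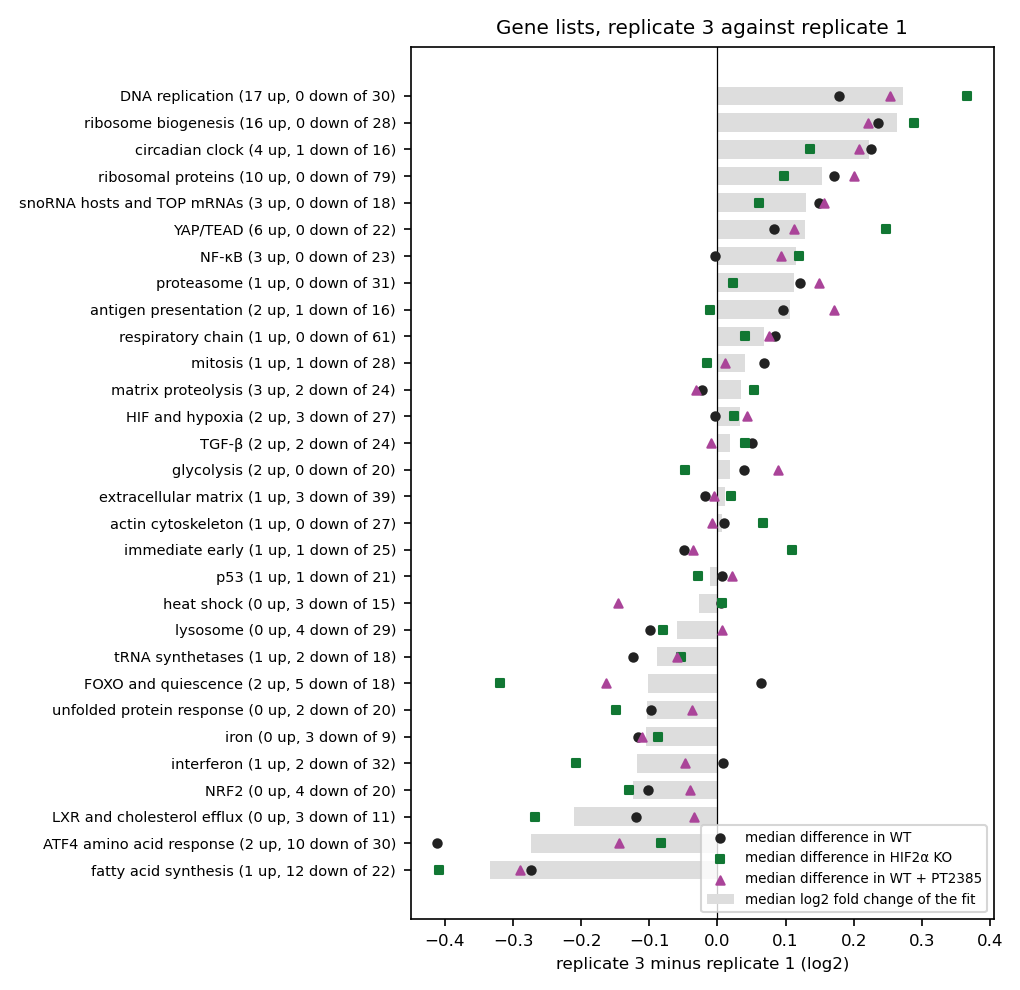
Median log2 difference between replicate 3 and replicate 1 for 30 gene lists (horizontal), as fitted over the 6 libraries (grey bars) and within WT (circles), KO (squares) and PT2385 (triangles), with counts of up-regulated and down-regulated members beside each name. DNA replication (0.27) and ribosome biogenesis (0.26) lie at the top, and ATF4 targets (-0.27) and fatty acid synthesis (-0.33) at the bottom, with all groups on the same side of 0 in these 4 lists.

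Most genes of DNA replication were up-regulated in replicate 3, whereas the share of mitosis genes that passed the test (7.14%) was near that of all genes (6.95%). Of 30 replication genes 17 were up-regulated and 0 down-regulated (56.7% against 6.95% of all genes), 30 of 30 had a positive log2 fold change, and their median was 0.27 against -0.00 for all genes. The medians within groups were 0.18 in WT, 0.37 in KO and 0.25 with PT2385. GINS2, a subunit of the replicative helicase (ENSG00000131153, chromosome 16, 85676198 to 85690073), had 29.7 normalized CPM in replicate 1 and 41.5 in replicate 3 of WT, 19.9 and 27.2 in KO, and 25.7 and 38.7 with PT2385. Replicate 3 was the higher library in each group, although the KO library of replicate 3 lay below the WT library of replicate 1. Its log2 fold change was 0.51 with a standard error of 0.0825 (Benjamini-Hochberg adjusted p = 0.00397 in edgeR's quasi-likelihood test). E2F1, the activator of this gene class (ENSG00000101412, chromosome 20, 33675477 to 33686385), had 69.1 and 91.3 CPM in WT, 58.5 and 89.4 in KO and 67.3 and 90.7 with PT2385, so that all 3 replicate 3 libraries lay above all 3 of replicate 1. Its log2 fold change was 0.48 with a standard error of 0.0673 (Benjamini-Hochberg adjusted p = 0.00153 in edgeR's quasi-likelihood test), and its replicate 2 libraries had 73.8, 54.7 and 74.9 CPM. The others included the cyclin CCNE2 (log2 fold change 0.44), E2F2 (0.38), the licensing factor CDT1 (0.34), the nucleotide enzymes RRM2 (0.33) and TYMS (0.28), the clamp PCNA (0.27) and the helicase subunits MCM3 (0.31), MCM4 (0.24), MCM2 (0.24) and MCM7 (0.21). MCM7, the most abundant per length, had 378 and 423 CPM in WT, 293 and 332 in KO, and 336 and 411 with PT2385.

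In contrast, 1 of 28 mitosis genes was up-regulated (BIRC5, 0.25) and 1 down-regulated (HMMR, -0.28), with a median log2 fold change of 0.04. These counts were 0 up and 5 down without the WT pair, 1 and 4 without the KO pair, and 1 and 0 without the PT2385 pair. The difference between both lists was not tested. Of the 17 replication calls, 11 were kept without the WT pair, 10 without the KO pair, 15 without the PT2385 pair and 9 by DESeq2. The adjusted p (edgeR, Benjamini-Hochberg) of CCNE2 was 0.0712 without the WT pair and 0.0662 without the KO pair, that of E2F2 0.064 without the KO pair, and that of MCM7 0.0773 without the WT pair and 0.0915 without the PT2385 pair. Strandedness of counting was not stated, so GINS2 may hold reads of GSE1, MCM7 of AP4M1 and CCNE2 of INTS8, which overlap them on the opposite strand.

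Promoters of the members were searched on both strands for 2 motifs chosen after the values were seen, the E2F motif TTTNNCGC and the cell cycle homology region TTTGAA of mitotic genes, which cannot start at the same base of a strand. The window was 300 bases, 250 before to 50 after the RefSeq start of each gene in GRCh38.p14. TTTNNCGC was present in 17 of the 26 replication genes with a promoter in the table (65.4%), in 3 of 22 mitosis genes (13.6%) and in 6.92% of 27195 promoters of the same length. TTTGAA was present in 1 of 26 replication genes (3.8%), in 16 of 22 mitosis genes (72.7%) and in 15.41% of all. These shares count all members of a list, differentially expressed or not. Of the 15 up-regulated replication genes with a promoter, 11 had TTTNNCGC. A match describes the letters and not a bound site, and whether matches went with the change in replicate 3 was not tested. The windows of GINS2 (chr16:85688905-85689204, minus strand) and E2F1 (chr20:33686336-33686635, minus strand) are shown because both genes had the largest rises of the list, with matches in capitals. GINS2 had 1 match and E2F1 had 4, some of them overlapping.
GINS2: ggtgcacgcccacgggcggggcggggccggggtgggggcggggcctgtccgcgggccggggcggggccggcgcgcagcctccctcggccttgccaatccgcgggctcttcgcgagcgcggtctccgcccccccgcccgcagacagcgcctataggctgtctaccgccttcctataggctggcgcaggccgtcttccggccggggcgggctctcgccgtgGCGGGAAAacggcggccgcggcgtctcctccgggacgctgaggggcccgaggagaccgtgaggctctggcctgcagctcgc
E2F1: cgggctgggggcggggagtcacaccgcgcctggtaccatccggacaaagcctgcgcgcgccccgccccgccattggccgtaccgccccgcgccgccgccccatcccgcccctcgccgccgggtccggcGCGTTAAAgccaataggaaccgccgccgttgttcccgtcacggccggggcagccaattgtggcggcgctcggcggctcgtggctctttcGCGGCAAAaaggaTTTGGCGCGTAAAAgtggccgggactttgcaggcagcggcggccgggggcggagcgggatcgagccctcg

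Of 28 ribosome biogenesis genes 16 were up-regulated in replicate 3 and 0 down-regulated (57.1%), and their median log2 fold change was 0.26, with 0.24 in WT, 0.29 in KO and 0.22 with PT2385. PES1 and BOP1, partners in maturation of the large subunit, had log2 fold changes of 0.36 and 0.34, MRTO4 and NOP16 of 0.35 each, and the abundant nucleolar proteins NPM1 and NCL of 0.24 each. ODC1 (0.34) and SRM (0.26) make polyamines. PES1 (ENSG00000100029, chromosome 22, 30576625 to 30607083) had 159.5, 183 and 203 normalized CPM in WT replicates 1, 2 and 3, 156, 158 and 198 in KO, and 170.1, 189 and 223 with PT2385. The replicate 3 libraries lay above all of replicate 1 (standard error 0.0557 on the log2 scale, adjusted p = 0.00295, edgeR's quasi-likelihood test with Benjamini-Hochberg adjustment). Among 79 ribosomal protein genes 78 had a positive log2 fold change, with a median of 0.15, and 10 were up-regulated (12.7%), among them RPL27A (0.27), RPS13 (0.26), RPL11 (0.24) and RPL27 (0.23), while 0 were down-regulated. The most abundant per length, RPL7A, had a log2 fold change of 0.09 and was not differentially expressed. Of 18 snoRNA hosts and other genes with terminal oligopyrimidine starts, SNHG12 (0.29), SNHG16 (0.28) and SNHG1 (0.24) were up-regulated (16.7%). Their list had a median of 0.13, with 0.16 for the elongation factor EEF2, which did not pass. Of all genes tested 6.95% were differentially expressed.

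Fewer of these calls held without the WT pair, with 8 of 16 for ribosome biogenesis, 0 of 10 for ribosomal proteins and 1 of 3 for snoRNA hosts. Without the WT pair the adjusted p (edgeR, Benjamini-Hochberg) was 0.0847 for NPM1, 0.176 for NOP16, 0.0744 for RPL27A, 0.101 for RPS13, 0.18 for RPL11, 0.287 for RPL27, 0.122 for SNHG12 and 0.128 for SNHG1. Without the KO pair 11 of 16, 7 of 10 and 2 of 3 held, with 0.112 for NOP16, 0.0998 for RPS13, 0.121 for RPL27 and 0.229 for SNHG1, and without the PT2385 pair 16, 6 and 3, with 0.137 for RPL11. DESeq2 kept 9 of 16, 0 of 10 and 1 of 3. Ribosomal proteins and NPM1 have processed pseudogenes that may share reads with them, PES1 overlaps TCN2 and SNHG12 overlaps TRNAU1AP on the opposite strand, and the snoRNAs lie within their hosts.

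The E-box CACGTG, the letters bound by MYC and by the clock factors, was searched in the same way and was also chosen after the values were seen. It was present in 9 of 22 ribosome biogenesis promoters (40.9%), in 5 of 16 clock gene promoters (31.2%) and in 7.45% of all 27195. Among differentially expressed members with a promoter, 6 of 13 ribosome biogenesis genes and 1 of 5 clock genes had it. The windows of PES1 (chr22:30591861-30592160, minus strand) and MRTO4 (chr1:19251555-19251854, plus strand) are shown for the largest rises among the differentially expressed members of the ribosome biogenesis list, each with 1 match, in capitals, that begins at base 264 and 265 of the window.
PES1: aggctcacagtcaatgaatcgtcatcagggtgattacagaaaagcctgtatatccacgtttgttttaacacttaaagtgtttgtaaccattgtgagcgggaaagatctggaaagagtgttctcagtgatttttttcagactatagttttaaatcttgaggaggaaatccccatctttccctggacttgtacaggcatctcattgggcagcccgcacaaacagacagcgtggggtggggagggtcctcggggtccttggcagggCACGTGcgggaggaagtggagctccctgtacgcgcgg
MRTO4: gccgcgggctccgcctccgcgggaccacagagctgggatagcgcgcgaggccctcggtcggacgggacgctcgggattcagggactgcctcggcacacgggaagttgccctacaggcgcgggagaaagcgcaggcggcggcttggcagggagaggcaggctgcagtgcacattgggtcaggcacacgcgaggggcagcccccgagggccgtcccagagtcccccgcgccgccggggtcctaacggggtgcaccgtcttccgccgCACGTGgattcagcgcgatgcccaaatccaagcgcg

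Most fatty acid synthesis genes fell in replicate 3. Of 22 tested, 12 were down-regulated and 1 up-regulated (ACSL1, 0.23), which is 59.1%, against 6.95% of all genes tested. The list had a median log2 fold change of -0.33 and group medians of -0.27 in WT, -0.41 in KO and -0.29 with PT2385. SCD, the desaturase that makes oleate (ENSG00000099194, chromosome 10, 100347233 to 100364826), had 918, 694 and 383 normalized CPM in WT replicates 1, 2 and 3, 629.9, 1087 and 171 in KO, and 500.2, 374 and 209.8 with PT2385. Each replicate 3 library lay below every replicate 1 library, and in KO replicate 2 was the highest. Its log2 fold change was -1.46 with a standard error of 0.0937 (Benjamini-Hochberg adjusted p = 4.76e-06 in edgeR's quasi-likelihood test). SREBF1, which encodes SREBP1 (ENSG00000072310, chromosome 17, 17810399 to 17837002), had 129 and 85.4 CPM in replicates 1 and 3 of WT, 124 and 61.6 in KO, and 122 and 78.0 with PT2385. The 3 replicate 1 libraries lay close together and above all of replicate 3, a log2 fold change of -0.75 with a standard error of 0.0761 (Benjamini-Hochberg adjusted p = 1.38e-04 in edgeR's quasi-likelihood test). LPIN1, a phosphatidate phosphatase of triglyceride synthesis (ENSG00000134324, chromosome 2, 11677595 to 11827409), had 172 and 104 CPM in WT, 234 and 107 in KO, and 133 and 73.8 with PT2385. PNPLA3, a lipid droplet enzyme, and LPIN1 both had a log2 fold change of -0.91. The enzymes of chain synthesis FASN (-0.58) and ACACA (-0.39) and the desaturases FADS2 (-0.69) and FADS1 (-0.48) were down-regulated, while the most abundant member per length, ACLY, which supplies acetyl-CoA, had -0.07 and was not differentially expressed.

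OLMALINC, a long noncoding RNA whose gene lies beside SCD on chromosome 10 (ENSG00000235823, 100373099 to 100454043), had the largest fall of the named genes. It had 19.9, 12.1 and 6.19 normalized CPM in WT replicates 1, 2 and 3, 14.7, 17.1 and 2.47 in KO, and 11.8, 7.17 and 2.31 with PT2385. All replicate 3 libraries lay below all of replicate 1 and the log2 fold change was -2.14 with a standard error of 0.168 (Benjamini-Hochberg adjusted p = 2.47e-05 in edgeR's quasi-likelihood test). OLMALINC, SCD and the sterol sensor gene INSIG1 were the 3 genes that passed the test against a 1.5-fold change. Among 11 genes of cholesterol efflux and LXR signalling, ABCA1 (-0.36), LPCAT3 (-0.36) and NPC1 (-0.24) were down-regulated (27.3%, against 6.95% of all genes differentially expressed). The list median was -0.21, or -0.07 without the KO pair, and -0.03 within PT2385. Of the fatty acid calls, 9 of 13 were kept without the WT pair, 12 without the KO pair and 13 without the PT2385 pair, and of the 3 LXR calls 1, 2 and 3. Without the WT pair the adjusted p (edgeR, Benjamini-Hochberg) was 0.0802 for LPCAT3 and 0.0798 for NPC1, and without the KO pair 0.0618 for LPCAT3. SREBF1 overlaps RAI1, LPCAT3 overlaps EMG1 and NPC1 overlaps RMC1 on the opposite strand, and PNPLA3 overlaps SAMM50 on its own.

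**Figure D4:**
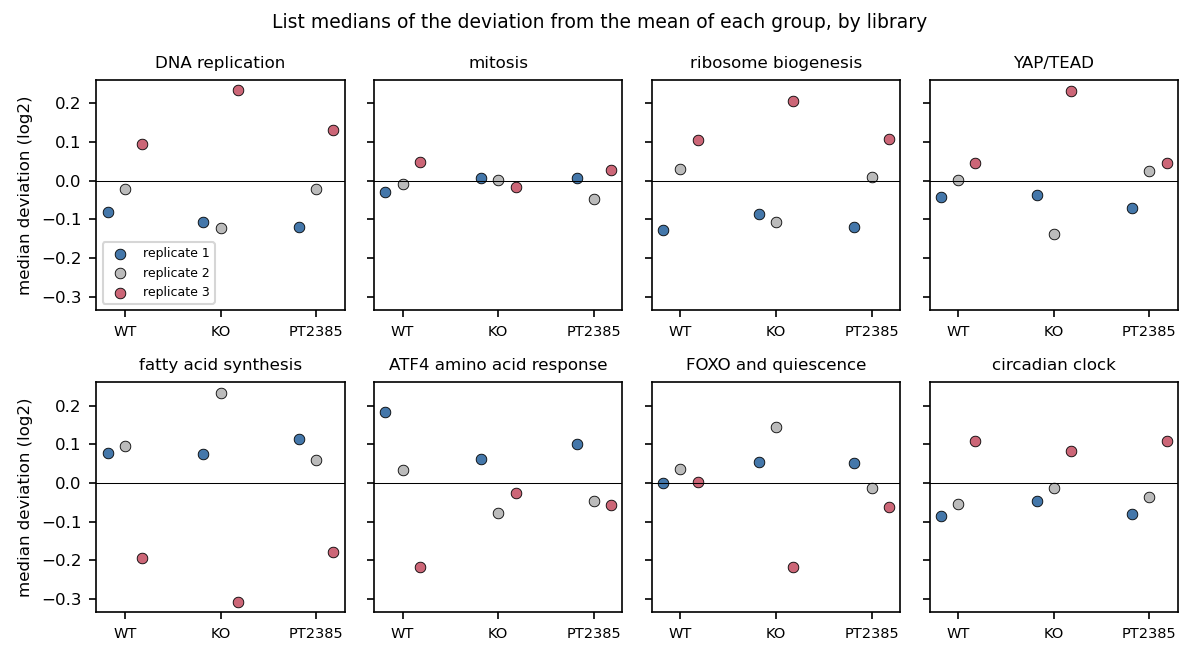
Median deviation of a list's genes from their group mean (log2, vertical) in each of the 9 libraries for 8 lists, with replicates 1 (blue), 2 (grey) and 3 (red) of WT, KO and PT2385. Replicate 3 is the highest library of every group in DNA replication (0.09, 0.23 and 0.13) and ribosome biogenesis, and the lowest in fatty acid synthesis (-0.19, -0.31 and -0.18).

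Of 30 genes of the ATF4 amino acid response 10 were down-regulated in replicate 3 and 2 up-regulated. This was 40% of the list, against 6.95% of all genes tested. The median log2 fold change of the list was -0.27 (-0.13 without the WT pair). The group medians were -0.41 in WT, -0.08 in KO and -0.14 with PT2385, and in KO replicate 2 (-0.08 from the group mean) lay below replicate 3 (-0.03). CHAC1, which degrades glutathione (ENSG00000128965, chromosome 15, 40952962 to 40956512), had 9.38, 9.05 and 3.26 normalized CPM in WT replicates 1, 2 and 3, 5.86, 3.81 and 4.95 in KO, and 11.7, 6.35 and 3.63 with PT2385. Replicate 3 lay below all of replicate 1, but by little in KO. The log2 fold change was -1.15 with a standard error of 0.23 (Benjamini-Hochberg adjusted p = 0.0111 in edgeR's quasi-likelihood test). ASNS, asparagine synthetase (ENSG00000070669, chromosome 7, 97851677 to 97872542), was lowly expressed at 6.03 and 2.51 CPM in WT, 2.86 and 1.79 in KO, and 3.39 and 1.96 with PT2385, a log2 fold change of -0.94. CBS, of the transsulfuration pathway (-0.93), the MTORC1 inhibitor DDIT4 (-0.68), the cystine transporter SLC7A11 (-0.57), the factor CEBPB (-0.45), TRIB3 (-0.40), SESN2 (-0.37), the transporter SLC38A2 (-0.32) and the serine enzyme PSAT1 (-0.27) fell as well. The factor ATF5 (0.53) and the leucine transporter SLC7A5 (0.30) rose. SLC7A5 (ENSG00000103257, chromosome 16, 87830023 to 87869507) had 2217 and 2403 CPM in WT, 589.6 and 802 in KO and 986 and 1242 with PT2385.

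Of 18 cytosolic tRNA synthetases, AARS1 (-0.37) and CARS1 (-0.35) were down-regulated and KARS1 (0.24) up-regulated, with a median of -0.09. They made up 16.7% of the list, against 6.95% of all genes tested. The most abundant per length, TARS1, had -0.10 and was not differentially expressed. AARS1 had 290.3 and 208 CPM in replicates 1 and 3 of WT, 192 and 153 in KO, and 266 and 216 with PT2385. The WT libraries carried part of this group. Without the WT pair 7 of the 12 ATF4 calls were kept, against 12 without the KO pair and 12 without the PT2385 pair, and the adjusted p (edgeR, Benjamini-Hochberg) was 0.206 for ASNS, 0.178 for CBS, 0.139 for CARS1 and 0.0878 for KARS1, which had 0.117 without the KO pair. SLC7A11 overlaps SLC7A11-AS1, AARS1 overlaps DDX19B and KARS1 overlaps TERF2IP on the opposite strand.

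The ATF4 motif TGATGNAA, also chosen after the values were seen and searched on both strands, was present in 5 of 24 promoters of the ATF4 list (20.8%), in 6 of 14 of the tRNA synthetases (42.9%) and in 3.67% of all 27195. The windows of CHAC1 (chr15:40953221-40953520, plus strand) and ASNS (chr7:97872359-97872658, minus strand) are shown because both genes led the falls of the list. The capitals mark 1 match in each, read on the other strand in CHAC1. Of the 9 down-regulated list members with a promoter, only these 2 had a match, and of the 2 up-regulated ones 0 did. Of the 3 differentially expressed tRNA synthetases with a promoter, 2 had a match.
CHAC1: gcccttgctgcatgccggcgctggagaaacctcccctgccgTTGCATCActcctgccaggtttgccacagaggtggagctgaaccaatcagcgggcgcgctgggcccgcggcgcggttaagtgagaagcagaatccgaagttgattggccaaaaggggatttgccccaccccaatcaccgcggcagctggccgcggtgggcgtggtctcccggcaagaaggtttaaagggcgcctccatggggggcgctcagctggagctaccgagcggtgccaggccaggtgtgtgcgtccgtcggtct
ASNS: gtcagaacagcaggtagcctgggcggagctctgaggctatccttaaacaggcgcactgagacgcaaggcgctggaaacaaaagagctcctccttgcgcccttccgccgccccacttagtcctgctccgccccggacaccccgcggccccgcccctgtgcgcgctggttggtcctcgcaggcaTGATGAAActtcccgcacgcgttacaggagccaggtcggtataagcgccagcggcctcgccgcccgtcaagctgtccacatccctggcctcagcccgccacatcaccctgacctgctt

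In other stress lists most genes did not pass the test, and those that did were down-regulated. They made up 20% of NRF2, 33.3% of iron, 20% of heat shock, 10% of unfolded protein response and 13.8% of lysosome genes. Of all genes tested 3.28% were down-regulated. Of 20 NRF2 targets 4 were down-regulated, SLC7A11 and ME1, which other lists hold too, the NADPH enzyme PGD (-0.30) and HMOX1 (-0.62), and the list median was -0.12. HMOX1, heme oxygenase (ENSG00000100292, chromosome 22, 35380361 to 35394214), had 10.9 and 7.02 normalized CPM in replicates 1 and 3 of WT, 18.7 and 11.3 in KO, and 14.4 and 10.3 with PT2385, with an adjusted p of 0.00859 (edgeR, Benjamini-Hochberg). Its replicates differed within each group, but the KO library of replicate 3 lay above WT replicate 1. AKR1B1, the most abundant NRF2 target per length, had a log2 fold change of 0.08 and was not differentially expressed. The ferritin chains FTH1 (-0.22) and FTL (-0.19) fell with HMOX1 among 9 iron genes (median -0.10). In 15 heat shock genes HSPA1B (-0.42), CHORDC1 (-0.26) and DNAJB1 (-0.21) fell, while the constitutive chaperone HSPA8 had 0.07. The list median was -0.03 (0.01 without the PT2385 pair), with 0.01 in WT, 0.01 in KO and -0.15 with PT2385. The unfolded protein response had HERPUD1 (-0.34) and HSP90B1 (-0.26) down of 20, with a median of -0.10. Of 29 lysosome and autophagy genes GABARAPL1 (-0.52), LIPA (-0.34), NPC1 and LAMP2 (-0.20) fell. The list median was -0.06 (0.01 within PT2385), and PSAP, the most abundant per length, had 0.09. Of these calls 0 of 4 lysosome, 2 of 4 NRF2, 1 of 3 iron, 1 of 3 heat shock and 1 of 2 unfolded protein response calls were kept without the WT pair, where the adjusted p (edgeR, Benjamini-Hochberg) was 0.0813 for PGD, 0.113 for ME1, 0.0953 for FTH1, 0.153 for FTL, 0.0543 for CHORDC1, 0.109 for DNAJB1, 0.0608 for GABARAPL1, 0.0538 for LIPA and 0.099 for LAMP2. Without the KO pair it was 0.108 for DNAJB1 and 0.061 for LAMP2, and without the PT2385 pair 0.181 for CHORDC1, 0.0907 for FTL and 0.0569 for LAMP2. With the GC correction LAMP2 (-0.11) and CHORDC1 (-0.15) did not pass (adjusted p of 0.167 and 0.0954, edgeR with Benjamini-Hochberg adjustment). HSPA1B is nearly identical to HSPA1A, the ferritins have pseudogenes, and LIPA overlaps IFIT2 and IFIT3 and DNAJB1 overlaps TECR on the opposite strand.

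Several genes linked to FOXO and quiescence fell. Of 18 tested 5 were down-regulated, namely KLHL24 (-1.05), the cyclin G gene CCNG2 (-0.75), the glucocorticoid-induced TSC22D3 (-0.73), PNRC1 (-0.64) and KLF9 (-0.46), and TXNIP (0.98) and IRS2 (0.36) were up-regulated. Differentially expressed genes made up 38.9% of the list, against 6.95% of all genes tested. The list median was -0.10, with 0.06 in WT, -0.32 in KO and -0.16 with PT2385. It was -0.21 without the WT pair, -0.06 without the KO pair and -0.06 with the GC correction, and the most abundant member per length, CITED2, had 0.21 and was not differentially expressed. KLHL24 (ENSG00000114796, chromosome 3, 183635610 to 183684519) had 10.1, 7.65 and 5.68 normalized CPM in WT replicates 1, 2 and 3, 19.9, 26.4 and 9.27 in KO, and 7.98, 5.38 and 3.42 with PT2385. Replicate 3 was the lowest of each group (standard error 0.135 on the log2 scale, adjusted p = 8.99e-04, edgeR's quasi-likelihood test with Benjamini-Hochberg adjustment). TXNIP, an inhibitor of glucose uptake that is induced by glucose (ENSG00000265972, chromosome 1, 145992435 to 145996579), had 6.03, 11.8 and 11.2 CPM in WT, 19.8, 15.3 and 40.5 in KO, and 8.39, 9.64 and 16.1 with PT2385, so that replicate 3 was above replicate 1 in each group (adjusted p = 1.74e-04, edgeR with Benjamini-Hochberg adjustment). CREBRF, a regulator of CREB3 factors outside the lists, fell too (-0.85). TSC22D3 had an adjusted p of 0.0561 (edgeR, Benjamini-Hochberg) without the WT pair, where 5 of the 7 calls were kept, against 7 without either other pair.

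Clock genes changed in both arms, and 31.25% of them were differentially expressed, against 6.95% of all genes tested. PER2 and TEF (0.58 each), the repressor CRY1 (0.25) and NR1D2 (0.23), targets of the CLOCK and BMAL1 pair, were up-regulated, and BMAL1 (-0.62), the activator gene itself, was down-regulated, of 16 tested (median 0.22, group medians 0.23, 0.14 and 0.21). PER2 (ENSG00000132326, chromosome 2, 238244044 to 238290102) had 13.6, 15.3 and 22.2 normalized CPM in WT replicates 1, 2 and 3, 13.2, 10.8 and 16.7 in KO, and 15.6, 13.0 and 24.7 with PT2385. BMAL1 (ENSG00000133794, chromosome 11, 13276652 to 13387266) had 14.4, 13.5 and 11.4 in WT, 13.2, 13.5 and 7.35 in KO, and 15.4, 11.4 and 9.64 with PT2385. In both genes the replicate 3 libraries did not overlap those of replicate 1, and the adjusted p was 0.00758 for PER2 and 0.0112 for BMAL1 (edgeR, Benjamini-Hochberg). DESeq2 kept 1 of the 5 calls, PER2. The DESeq2 adjusted p (Benjamini-Hochberg) was 0.0415 for PER2, 0.0765 for BMAL1, 0.0554 for TEF and 0.230 for CRY1. BHLHE40, the most abundant per length, had -0.20 and was not differentially expressed. CRY1 had an adjusted p (edgeR, Benjamini-Hochberg) of 0.128 without the WT pair and 0.299 without the KO pair, and 3, 3 and 5 of the 5 calls were kept without the WT, KO and PT2385 pairs.

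**Figure D5:**
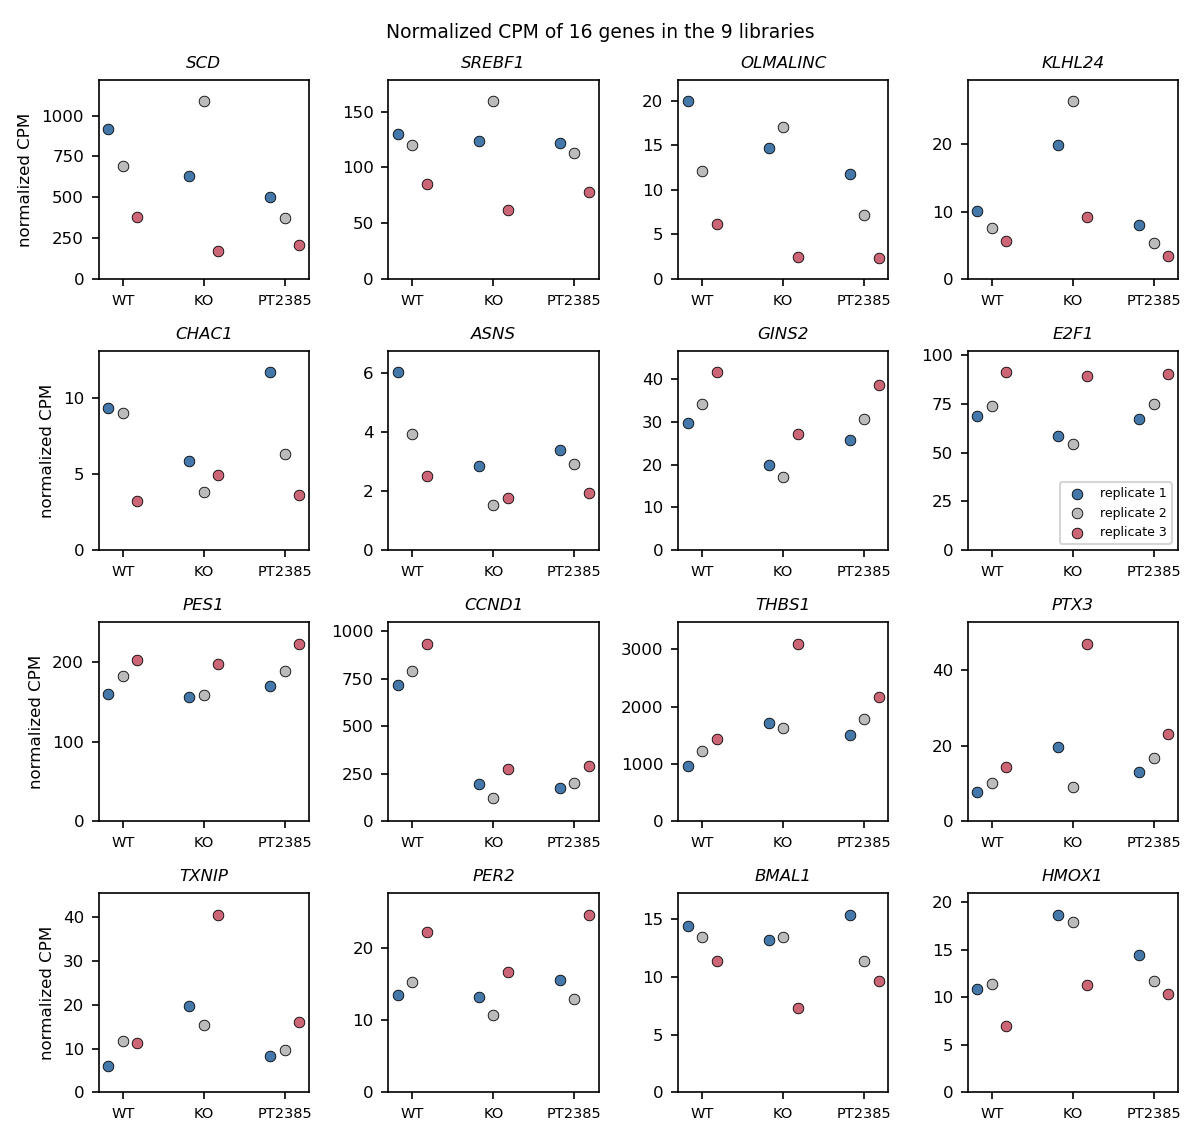
Normalized CPM (vertical) of 16 genes in the 9 libraries, with replicates 1 (blue), 2 (grey) and 3 (red) of WT, KO and PT2385. SCD, SREBF1, OLMALINC, KLHL24, CHAC1, ASNS, BMAL1 and HMOX1 are lower in replicate 3 than in replicate 1 of every group, and GINS2, E2F1, PES1, CCND1, THBS1, PTX3, TXNIP and PER2 are higher.

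Of 22 targets of YAP and TEAD 6 rose in replicate 3 and 0 fell (27.3%, against 6.95% of all genes tested). These were CCN2 (0.49), FJX1 (0.46), the YAP-binding AMOTL2 (0.34), the ectonucleotidase NT5E (0.32), CRIM1 (0.31) and WWC1 (0.24). The list had a median of 0.13, with 0.08 in WT, 0.25 in KO and 0.11 with PT2385 (0.07 without the KO pair), and its most abundant member per length, the receptor kinase AXL, had 0.19 and was not differentially expressed. THBS1, the matrix glycoprotein thrombospondin 1 (ENSG00000137801, chromosome 15, 39581079 to 39599466), had 963, 1231 and 1439 normalized CPM in WT replicates 1, 2 and 3, 1715, 1619 and 3098 in KO, and 1505, 1775 and 2170.4 with PT2385. Replicate 3 was the highest of each group, and the log2 fold change was 0.65 with a standard error of 0.0607 (Benjamini-Hochberg adjusted p = 8.32e-05 in edgeR's quasi-likelihood test). CCND1, the cyclin of entry into the cell cycle and a HIF2α target in this cell type (ENSG00000110092, chromosome 11, 69641156 to 69654474), had 717 and 935 CPM in replicates 1 and 3 of WT, 194 and 278 in KO, and 177 and 293 with PT2385. It was up-regulated in replicate 3 at each level that its group gave it, with a log2 fold change of 0.54 with a standard error of 0.0655 (Benjamini-Hochberg adjusted p = 5.86e-04 in edgeR's quasi-likelihood test). PTX3, a secreted pentraxin and the largest rise of the named genes (ENSG00000163661, chromosome 3, 157436850 to 157443633), had 7.79 and 14.3 CPM in WT, 19.6 and 46.9 in KO and 13.1 and 23.1 with PT2385. Its replicate 2 libraries had 10.1, 9.08 and 16.7 CPM, below replicate 1 in KO and between the others elsewhere.

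Other matrix and surface genes went in both directions. The share differentially expressed was 10.3% of matrix genes, 20.8% of matrix protease genes and 16.7% of TGF-β targets. It was 8% of immediate early genes and 3.70% of actin genes, against 6.95% of all genes tested. Fibronectin FN1 (-0.39), TGFBI (-0.19) and the collagen hydroxylase P4HA1 (-0.25) fell beside the rise of THBS1 among 39 matrix genes, with a median of 0.01. FN1 (ENSG00000115414, chromosome 2, 215360440 to 215436073) had 4577 and 3370.3 CPM in replicates 1 and 3 of WT, 27610.4 and 22098 in KO, and 9138 and 6827 with PT2385. Among 24 matrix protease genes SERPINE2 (0.43), PLAUR (0.29) and ADAMTS1 (0.21) rose and MMP2 (-0.40) and ADAM9 (-0.21) fell (median 0.03). Of 24 TGF-β targets CCN2 and SMAD3 (0.24) rose, and TGFBI and SNAI2 (-0.29) fell (median 0.02). Among 25 immediate early genes FOSL1 (0.48) rose and PHLDA1 (-0.24) fell, and among 27 actin genes LIMA1 (0.30) rose. The medians of the matrix, actin, immediate early and TGF-β lists changed sign under several settings, among them library size alone and leaving out the KO pair, so no direction is given for these lists. Calls lost without a pair were CCN2 without KO (adjusted p = 0.217, edgeR with Benjamini-Hochberg adjustment), NT5E (0.13), TGFBI (0.18), P4HA1 (0.0605), PLAUR (0.106), ADAM9 (0.108), SNAI2 (0.16) and SMAD3 (0.074) without WT. PLAUR (0.223) and P4HA1 (0.0735) were also lost without KO, and P4HA1 (0.0788), ADAM9 (0.0976) and SNAI2 (0.0801) without PT2385. LIMA1 was lost without WT and without KO, ADAMTS1 without WT and without PT2385, and PHLDA1 without WT, and 1 of the 2 immediate early calls was kept without KO. ADAM9 was lost with the GC correction too (adjusted p = 0.0549, edgeR with Benjamini-Hochberg adjustment). THBS1 overlaps FSIP1, CCND1 overlaps LTO1, PTX3 overlaps VEPH1 and ADAM9 overlaps TM2D2 on the opposite strand.

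Of NF-κB genes 13.0% were differentially expressed, of interferon genes 9.38% and of antigen presentation genes 18.8%, against 6.95% of all genes tested. NFKBIA (0.31), ICAM1 (0.26) and CXCL5 (0.25) rose among 23 NF-κB genes (median 0.11), and all 3 calls were lost without the KO pair, where the adjusted p (edgeR, Benjamini-Hochberg) was 0.203, 0.169 and 0.313, and CXCL5 also without WT (0.0952). In KO, ICAM1 had 160.3, 117 and 213 normalized CPM in replicates 1, 2 and 3. Among 32 interferon genes STAT2 (-0.35) and SAMD9 (-0.49) fell (median -0.12), and of 16 antigen presentation genes HLA-B (0.39) and the peptide transporter TAP2 (0.33) rose and the peptidase ERAP2 (-0.21) fell (median 0.11). HLA-B had 126 and 180.0 CPM in replicates 1 and 3 of WT, 193 and 220.4 in KO, and 133 and 186 with PT2385, and reads of other HLA class I genes may be among them. The NF-κB median was 0.06 without the KO pair and -0.00 within WT, and the interferon median was 0.01 within WT. The antigen presentation median was 0.04 without the PT2385 pair, 0.16 without the KO pair and -0.01 within KO. IL32 (0.06) and CALR (-0.10), the most abundant NF-κB and antigen presentation genes per length, were not differentially expressed. Without the WT pair the adjusted p (edgeR, Benjamini-Hochberg) was 0.0678 for STAT2 and 0.0866 for ERAP2, without the KO pair 0.0881 for STAT2, 0.224 for TAP2 and 0.0633 for ERAP2, and without the PT2385 pair 0.126 for SAMD9 and 0.0947 for ERAP2.

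Hypoxia genes went in both directions, and 18.5% of them were differentially expressed. The share was 10% of glycolysis, 1.64% of respiratory chain and 7.69% of mitochondrial genes, against 6.95% of all genes tested. It was 3.23% of proteasome genes, 9.52% of p53 targets and 28.6% of nuclear noncoding RNAs. Of 27 HIF and hypoxia genes CCND1 and TGFA (0.32) were up-regulated, and NDRG1 (-0.26), HIF1A (-0.39) and the glucose transporter SLC2A3 (-0.55) down-regulated, with a median of 0.03. SLC2A1, the most abundant per length, had 0.09 and was not differentially expressed. HK2 (0.37) and SLC16A1 (0.23) rose among 20 glycolysis genes (median 0.02), CYC1 (0.21) among 61 nuclear respiratory chain genes (median 0.07, 46 positive), MT-ND1 (0.21) among 13 mitochondrial genes (median 0.00) and PSMD2 (0.21) among 31 proteasome genes (median 0.11, 26 positive). Of 21 p53 targets AEN (0.29) rose and TP53INP1 (-0.61) fell, with a median of -0.01. The 6 metallothioneins tested had log2 fold changes of -0.08 to 0.63 and did not pass the test. Among 7 nuclear noncoding RNAs MALAT1 (-0.42) and KCNQ1OT1 (-0.29) fell, and MALAT1 took 0.648% and 0.500% of the reads in replicates 1 and 3 of WT, 0.728% and 0.526% in KO, and 0.797% and 0.569% with PT2385. Without the KO pair SLC2A3 had an adjusted p of 0.0831 (edgeR, Benjamini-Hochberg), without the WT pair HIF1A had 0.187 and TGFA 0.0584, and without the PT2385 pair they had 0.0734 and 0.0594, and NDRG1 was lost without the WT pair too. Leaving out the WT, KO and PT2385 pairs in turn kept 2, 4 and 3 of the 5 hypoxia calls, 1, 0 and 2 of the 2 glycolysis calls, 0, 0 and 0 of the 1 respiratory chain call, 0, 0 and 1 of the 1 mitochondrial call, 0, 1 and 1 of the 1 proteasome call, 1, 2 and 2 of the 2 p53 calls and 2, 1 and 2 of the 2 noncoding calls. DESeq2 kept 0 of the glycolysis, respiratory chain, mitochondrial and proteasome calls. The medians of the hypoxia, glycolysis, mitochondrial and p53 lists changed sign under some settings. HIF1A overlaps HIF1A-AS3 on the opposite strand.

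Among genes that averaged at least 100 counts, the largest changes outside the lists included protein-coding and noncoding genes in both directions. CCDC80, a secreted matrix-binding protein (ENSG00000091986, chromosome 3, 112596797 to 112649530), had 43.7, 64.0 and 72.5 normalized CPM in WT replicates 1, 2 and 3, 52.2, 67.3 and 132 in KO, and 72.3, 91.2 and 99.4 with PT2385, a log2 fold change of 0.84. It was 1 of the 7 genes that also differed between replicates 2 and 1 (log2 fold change 0.41, adjusted p = 0.0265, edgeR's quasi-likelihood test with Benjamini-Hochberg adjustment), as was SLC7A11 (-0.39, adjusted p = 0.00621). The factor KLF5 (0.75), the insulin-like growth factor binding protein IGFBP1 (0.72) and the glycoprotein hormone STC1 (0.72) rose as well. RN7SL3, an RNA of the signal recognition particle, rose by 0.86, but its sequence is shared with many copies. Its far more abundant relative RN7SL2, which did not pass, had 118256 and 68508 reads in replicates 1 and 3 of WT and 151500.0 and 91789 in KO, the other direction, and 74653 and 99617 with PT2385. ENSG00000280407 (0.76) and ENSG00000275888 (0.71) lie opposite CSNK1D, so their reads cannot be told from those of that gene. Among the falls, KLHL14 (-1.46) had 4.44 and 2.93 CPM in replicates 1 and 3 of WT, 20.1 and 4.12 in KO, and 10.0 and 4.89 with PT2385, so most of its fall was in KO and PT2385. SNAI3-AS1 (-1.13), LINC02615 (-0.98), MAGI2 (-0.90) and DNASE1 (1.99-fold lower) were the others. MAGI2 differed by -0.47 in WT, -0.51 in KO and -1.98 with PT2385, had -0.50 without the PT2385 pair and did not pass with DESeq2 (Benjamini-Hochberg adjusted p = 0.315, against under 0.05 in edgeR). DNASE1 overlaps TRAP1 and SNAI3-AS1 overlaps SNAI3 on the opposite strand. IGFBP1 had an adjusted p of 0.0528 without the WT pair (edgeR, Benjamini-Hochberg). Of the genes described above, RPL27A also overlaps DENND2B, NOP16 overlaps HIGD2A and ARL10, FTH1 overlaps BEST1, TSC22D3 overlaps NCBP2L, CARS1 overlaps CARS1-AS1, GABARAPL1 overlaps GABARAPL1-AS1, CCN2 overlaps LINC01013 and ICAM1 overlaps LIMASI, each on the opposite strand.

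For scale, the group effects were fitted on all 9 libraries with the replicate number as a block. PT2385 against WT changed 1681 of 15655 genes (10.7%) and KO against WT 5637 (36%), or 953 and 4595 with no replicate block, and these fits share libraries with the replicate comparison. DDIT4, which fell by 0.68 on the log2 scale in replicate 3, had log2 fold changes of -2.67 with PT2385 and -2.23 in KO, and CCND1 had -1.90 and -2.09 beside its replicate effect of 0.54. SCD had -0.88 with PT2385 (adjusted p = 0.0327, edgeR with Benjamini-Hochberg adjustment) and -0.28 in KO (0.414), both smaller in size than its replicate difference of -1.46. E2F1 had -0.01 and -0.23, PES1 0.09 and -0.09, and SREBF1 -0.10 and -0.01, against replicate differences of 0.48, 0.36 and -0.75.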

How the data were processed

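RNA-seq of 9 libraries of 786-0 cells (WT, KO and PT2385, 3 replicates each) was analysed. The authors checked reads with FastQC, trimmed them with cutadapt, aligned them to GRCh38 with STAR and counted them per gene with featureCounts, and deposited raw counts without normalization. The annotation release and the strandedness of counting were not stated, so overlapping genes may share reads. Of 58735 identifiers 58207 were matched to GENCODE v44. Groups and replicate numbers came from the labels.

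Counts were analysed with edgeR 4.0.16 in R 4.3.3 (TMM, filterByExpr by replicate number with its minimum of 10 counts, glmQLFit and glmQLFTest with the group as a block, Benjamini-Hochberg adjustment), on the 6 libraries of the 2 numbers compared, or on all 9 for group effects and for any difference. Standard errors were derived as the size of the log2 fold change divided by the square root of the quasi-likelihood F statistic. Normalized CPM were scaled by library size and TMM factor, and deviations from group means used log2 CPM with a prior count of 2. The steps were tested on simulated data. Total counts ran from 11881000 to 14730081, and replicates differed by more than counting error. Figures were drawn with matplotlib 3.10.9.

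Named genes were, outside the mevalonate list, the 10 largest rises and 10 largest falls among differentially expressed genes that kept their sign in all groups and averaged at least 100 counts, and from each list with at least 3 such genes up to 4 with the largest change and the most abundant per length. Other genes named were chosen after their values were seen. The comparison, its members and the gene lists were chosen with earlier results of these data known, so lists are described by counts and medians, with no test of the list.

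The alternatives were RLE, upper-quartile and library-size scaling, DESeq2 1.42.0, no filter, at least 10 counts in every library, no group block, all 9 libraries, a test against a 1.5-fold change, an adjusted p under 0.01, leaving out each pair of libraries, thinning to the smallest library, and corrections for GC content and length (lowess of log2 counts, span 0.3). Genes withheld for evaluation are not named, though list counts and medians include them. Mevalonate and sterol genes were left out of the description by the rule of the comparison. Promoters came from RefSeq (GRCh38.p14).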

Additional observations from a re-analysis of the deposited data

How the results depend on the processing

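For replicate 3 against 1 (1050 genes) the count stayed within 1.5 times under RLE (1055), upper-quartile (1087) and library-size scaling (890), at least 10 counts in every library (1088), all 9 libraries (968), thinning (1067) and the length correction (1036). It was 301 with DESeq2, 1733 with no filter, 0 without the group block, 3 against a 1.5-fold change, 232 at an adjusted p under 0.01, 1782 with the GC correction and 1629 with GC content and length corrected together, an alternative chosen after seeing the data. Leaving out 1 pair of libraries gave 536 to 1104. Replicate 2 against 1 (7) had 168 with no filter and 1 to 194 with a pair left out, replicate 3 against 2 (37) had 522 and 9 to 291, and any difference (409) had 1552 and 31 to 483. DESeq2 gave 8 and 44 genes for the first 2. In all, 16 of 36 alternative counts were within 1.5 times. The cause of the other shifts was not tested. Of 109 named genes 95 were differentially expressed, and these kept their sign under every setting with a value for them (17, or 16 for ASNS and CBS, which have none from DESeq2). Of 93 with a DESeq2 adjusted p 46 were lost with DESeq2, and of the 95 41 were lost without the WT pair, 21 without the KO pair, 12 without the PT2385 pair and 3 with the GC correction. By list, DESeq2 kept 9 of 13 fatty acid, 6 of 12 ATF4, 5 of 7 FOXO, 3 of 6 YAP/TEAD, 1 of 5 clock and 0 of 3 NF-κB calls. CALR, not differentially expressed, changed sign without the KO pair.

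Replicate numbers were checked as pairs: deviations from group means, over 10140 genes, correlated between groups by 0.319, 0.453 and 0.348 for replicate 1, 0.056, 0.137 and 0.0915 for replicate 2, and 0.481, 0.431 and 0.415 for replicate 3. Those of replicates 1 and 3 were all above 0.1, but not all of those of replicate 2. Whether a number marked a shared culture cannot be decided from these values, since same-numbered libraries may also resemble each other for technical reasons. The block in the group fits only removes the average difference between replicate numbers. With the replicate block PT2385 changed 1681 genes and KO 5637, and with no replicate block 953 and 4595.

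With 2 residual degrees of freedom, a gene that did not pass is not shown to be equal. The low counts of ASNS and CBS carry large counting error. The labels do not say whether replicates were separate cultures.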

Other observations

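Further genes of DNA replication were looked at after the values were seen, so they are described without a test of the list. Of 40 other S-phase genes 9 were up-regulated in replicate 3 and 0 down-regulated (against 3.67% of all genes tested up-regulated), and the median log2 fold change was 0.11, with 0.12 in WT, 0.17 in KO and 0.12 with PT2385. They were the uracil glycosylase UNG (0.51), the phosphatase CDC25A (0.49), the transcription factor ZNF367 (0.45), the origin subunit ORC1 (0.39), the kinase PKMYT1 (0.39), the loading factor MCM10 (0.34), the histone mRNA-binding SLBP (0.26), the clamp loader RFC5 (0.26) and the mismatch repair gene MSH6 (0.22). Thus 33 of the 40 had a positive value, and 7 a negative one.

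Of 57 genes of cilia, primary or motile, a list also chosen after the values were seen, 9 were down-regulated in replicate 3 and 0 up-regulated (against 3.28% of all genes tested down-regulated), and 45 had a negative log2 fold change (median -0.16, with -0.09 in WT, -0.19 in KO and -0.14 with PT2385). These were TBC1D32 (-0.83), the ciliary transcription factor RFX3 (-0.80), CFAP47 (-0.76), DNHD1 (-0.73), CFAP44 (-0.70), the intraflagellar transport genes IFT80 (-0.55) and WDR19 (-0.53), the transport motor DYNC2H1 (-0.52) and LZTFL1 (-0.50). The list had a median exon GC content of 41.7% and a median length of 4860 bases, where down-regulated genes were frequent, and the part of composition in these values was not tested.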
